A study of Homo sapiens with 12 samples.

Results

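DLD1 cells, a human colorectal adenocarcinoma line, were exposed for 1 h to kynurenine or to the vehicle DMSO, and the transcripts of both groups were counted. The comparison took every library labelled kynurenine and every library labelled DMSO, 3 of each, which is 6 of the 12 libraries of the series. The other 6 libraries came from the same line after 1 h with the dioxin TCDD (3 libraries) or with CH223191 (3 libraries). Kynurenine, TCDD and CH223191 were each labelled as given at 10 µM, and no dose was given for the vehicle. The cells are 1 established line, and nothing in the labels ties the replicates of 1 treatment to separate cultures. The p-values therefore measure the spread between these libraries, which may be technical.

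Kynurenine is a breakdown product of tryptophan, made by the dioxygenases IDO1, IDO2 and TDO2, that binds the aryl hydrocarbon receptor AHR. AHR waits in the cytoplasm with the chaperone HSP90 and, once a ligand is bound, pairs in the nucleus with ARNT on DNA holding the core letters GCGTG, where it raises CYP1A1, CYP1B1 and the feedback genes AHRR and TIPARP. TCDD is a strong and persistent ligand of the receptor, and CH223191 is a synthetic antagonist of it. In the colon the receptor takes part in barrier function and in the response to diet and microbes.

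The 6 libraries held 24908227 to 28247146 reads assigned to genes, and 16675 to 16881 genes had at least 1 read. Reads outside annotated genes made up 7.19% to 8.48% of each DMSO library and 6.79% to 7.21% of each kynurenine library, and the part of this share in the results was not tested. Kynurenine replicate 1 stood apart from the other kynurenine libraries. The variance of its counts against theirs was 5.17 and 5.14 times that of Poisson sampling, while kynurenine replicates 2 and 3 differed by 1.84 times, and DMSO pairs by 2.76 to 4.37 times. Pairs of 1 DMSO and 1 kynurenine library differed by 2.10 to 7.02 times, so some were closer than any DMSO pair. No pair of libraries was close enough to be a single library deposited again. The epithelial genes EPCAM, CDH1, KRT8, KRT18 and CDX2 were high in every library. Of the other colon markers, PHGR1 had no read, CDX1, CEACAM5, GPA33 and LGALS4 stayed under 1 CPM (counts scaled to the size of the library), and KRT20 and VIL1 lay under 4 CPM. Summed markers of fibroblasts, immune cells and endothelium reached at most 17 CPM in any of the 6 libraries, their ranges overlapped between groups, and none of their 13 tested genes was called.

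The response was small. Of 13619 genes tested, 40 (0.294%) differed between kynurenine and DMSO at an adjusted p under 0.05 (edgeR's quasi-likelihood test with Benjamini-Hochberg adjustment), 21 higher (0.154%) and 19 lower (0.14%). The genes that rose included the xenobiotic oxidase CYP1A1 (3.15-fold), the calcium channel ITPR1 (1.94-fold), the drug efflux pump ABCG2 (1.80-fold) and the aldehyde dehydrogenases ALDH1A3 (1.55-fold) and ALDH3A1 (1.26-fold). The genes that fell included the AHR targets CYP1B1 (0.775-fold) and TIPARP (0.863-fold), the glucose carrier SLC2A1 (0.824-fold) and the growth factor EREG (0.852-fold). A rise of 1.5-fold or more was seen in 7 of the called genes, a fall of that size in 0, and 27 of the 40 lay under 1.25-fold in either direction. The smallest called change was the 0.15 rise of NQO1 on the log2 scale. The libraries are bulk RNA, so fewer cells carrying a transcript and less of it per cell cannot be told apart. The median log2 fold change was 0.34 over the called rises, -0.24 over the called falls and -0.0030 over all genes tested. The 3 kynurenine libraries lay all above or all below the 3 DMSO libraries in each of the 40 called genes, and in 1555 (11.4%) of all genes tested, 712 (5.23%) above and 843 (6.19%) below. Before adjustment, 913 genes (6.7%) had a p under 0.05.

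**Figure D1:**
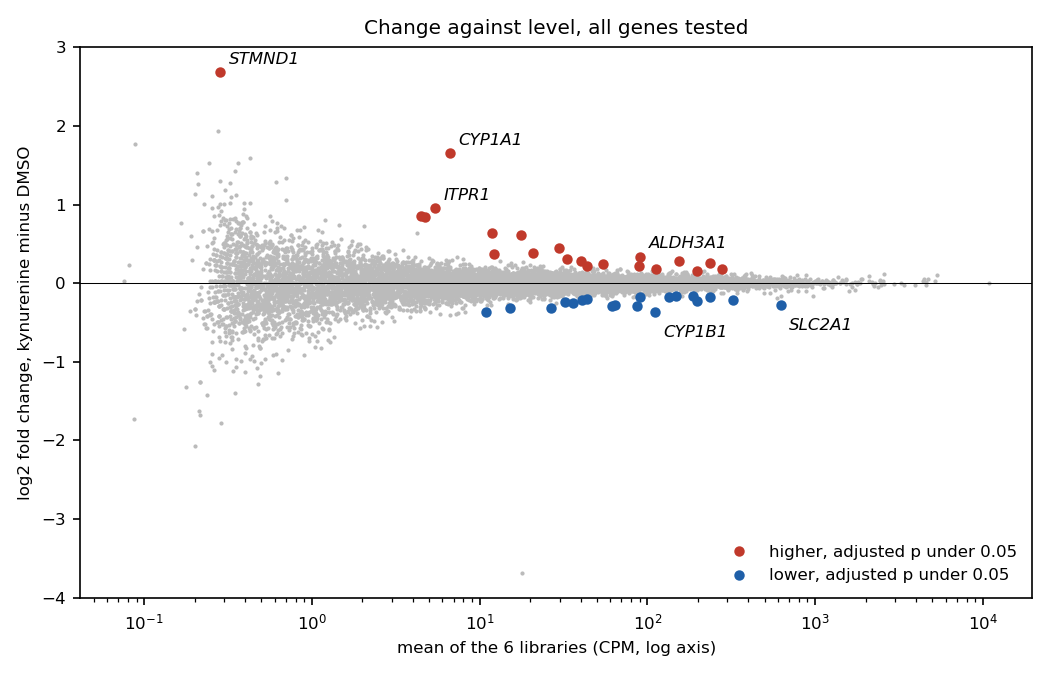
Log2 fold change of kynurenine against DMSO (vertical axis) against the mean CPM of the 6 libraries (horizontal, log axis) for the 13619 genes tested, with genes called higher in red and lower in blue. The grey band widens towards low levels, and some uncalled genes, such as INSIG1 and RN7SL2, lie as far from 0 as the smaller called changes. STMND1 is the called gene under 1 CPM, and the lowest grey point is the ribosomal RNA RNA18S5, which stood high in a single DMSO library.

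CYP1A1 codes for the cytochrome P450 that AHR ligands raise most readily. It gave 3.05, 3.29 and 3.30 CPM in the DMSO libraries and 9.16, 11.2 and 10.1 CPM in the kynurenine libraries, from 80 to 91 and 250 to 299 reads. Every kynurenine library thus lay well above every DMSO library. The log2 fold change was 1.65 (SE 0.108), with an adjusted p of 8.95e-14 (edgeR), the smallest of the comparison. The gene lies on the minus strand of chromosome 15 (hg38, 74719542 to 74725536). The 250 bases before its RefSeq start are shown with those of other genes among the 4 largest rises and 2 largest falls at 1 CPM or more, CYP1B1 and ABCG2 excepted. They are given 5′ to 3′ on the gene's strand (RefSeq, GRCh38.p14), with the AHR core GCGTG, or its reverse complement CACGC, in capitals, to show where these letters stand before genes that moved. The windows are CYP1A1, chr15:74725529-74725778, minus strand, ITPR1, chr3:4493098-4493347, plus strand, ADGRF1, chr6:47042333-47042582, minus strand, and MB21D2, chr3:192917857-192918106, minus strand.
CYP1A1: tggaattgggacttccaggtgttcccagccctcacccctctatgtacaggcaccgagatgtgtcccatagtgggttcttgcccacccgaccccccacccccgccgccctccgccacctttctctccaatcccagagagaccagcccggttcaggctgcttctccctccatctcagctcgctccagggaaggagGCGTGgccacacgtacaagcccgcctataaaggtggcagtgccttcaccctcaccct
ITPR1: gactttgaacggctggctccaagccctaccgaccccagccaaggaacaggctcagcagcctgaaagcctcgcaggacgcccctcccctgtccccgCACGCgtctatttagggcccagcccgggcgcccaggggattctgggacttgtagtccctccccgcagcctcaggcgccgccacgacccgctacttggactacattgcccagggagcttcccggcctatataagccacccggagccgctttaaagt
ADGRF1: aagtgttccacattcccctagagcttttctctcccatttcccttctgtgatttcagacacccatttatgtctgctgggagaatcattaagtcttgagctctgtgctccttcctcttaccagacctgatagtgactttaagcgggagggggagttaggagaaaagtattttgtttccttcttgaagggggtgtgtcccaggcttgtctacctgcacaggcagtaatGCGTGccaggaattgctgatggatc
MB21D2: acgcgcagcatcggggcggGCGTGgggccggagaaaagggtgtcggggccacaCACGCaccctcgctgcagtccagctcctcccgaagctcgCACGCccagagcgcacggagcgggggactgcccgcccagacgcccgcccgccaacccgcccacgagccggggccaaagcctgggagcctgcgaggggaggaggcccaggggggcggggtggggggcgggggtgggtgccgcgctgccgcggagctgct
The match began 57 bases before the start of CYP1A1, 155 before that of ITPR1 on the other strand, and 25 before that of ADGRF1. MB21D2, which fell, held 3 matches, beginning 231, 197 and 158 bases before its start. ABCG2 has 5 windows, with up to 2 matches in a window. A promoter entry was found for 33 of the 40 called genes and none for ALDH3A1, DUSP5, CLDND1, CYR61, LGR5, FAM189A1 and CYP1B1. GCGTG on either strand was in at least 1 window of 17 of the 33 (51.5%), 9 of 19 rises (47.4%) and 8 of 14 falls (57.1%), beside 53.1% of 10047 tested genes with an entry. The longer motif TNGCGTG, which contains the core, was in a window of 1 of the 33 (ID1, 3.03%), beside 7.84% of those tested genes. Over single windows, GCGTG was in 32.2% and TNGCGTG in 4.52% of 35116. The called genes therefore held the core about as often as the tested genes did, and a match describes letters, not a binding site.

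Most other enzymes and carriers of the drug response that rose did so by less than CYP1A1. ABCG2, an efflux pump of the ABC family, gave 3.28, 2.97 and 3.34 CPM with DMSO and 4.95, 6.32 and 6.02 CPM with kynurenine (log2 fold change 0.85, SE 0.123, adjusted p = 5.57e-05). ALDH1A3, which makes retinoic acid from retinal, gave 8.85, 9.47 and 9.69 CPM with DMSO and 14.4, 14.3 and 14.8 CPM with kynurenine (0.63, SE 0.078, adjusted p = 3.53e-06). ALDH3A1, which oxidises fatty and aromatic aldehydes, gave 84.5, 77.4 and 78.3 CPM against 105, 98.0 and 100 CPM (0.34, SE 0.0424, adjusted p = 5.12e-06). The 3 genes were above their whole DMSO range in every kynurenine library. NQO1, a quinone reductase shared by the AHR and NRF2 programmes, rose from 185 to 189 CPM with DMSO to 203 to 214 CPM with kynurenine (0.15, adjusted p = 0.023), a call lost without any 1 of DMSO replicates 1, 2 or 3 or kynurenine replicates 1 or 3 (highest adjusted p 0.15) and in a fit of the 6 libraries alone (adjusted p = 0.10). Among 16 tested aldehyde dehydrogenases ALDH1A3 and ALDH3A1 were called, beside 0.294% of all genes, ALDH3A2 being at 0.10 (adjusted p = 0.36). Among 27 tested ABC transporters ABCG2 alone was called, beside 0.294% of all genes, and ABCC1, another efflux pump, was at -0.14 (adjusted p = 0.16). None of 22 tested genes of other drug metabolism passed (edgeR), with 1 at an unadjusted p under 0.05, beside 6.7% of all genes.

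ITPR1, the channel that releases calcium from the endoplasmic reticulum, gave 3.85, 3.33 and 3.89 CPM with DMSO and 6.02, 7.29 and 8.24 CPM with kynurenine (log2 fold change 0.96, SE 0.123, adjusted p = 6.18e-06). Its relatives ITPR2 and ITPR3 were at -0.16 and -0.10 (adjusted p = 0.34 and 0.75). ITPR1 was the called gene among 17 tested for calcium release and entry, beside 0.294% of all genes. ADGRF1, an adhesion G protein-coupled receptor, gave 2.82, 3.36 and 3.85 CPM with DMSO and 5.09, 6.69 and 6.34 CPM with kynurenine (0.85, SE 0.13, adjusted p = 0.000153). SCIN, an actin-severing protein, gave 12.9, 14.1 and 14.8 CPM against 19.7, 20.6 and 23.5 CPM (0.61, SE 0.0699, adjusted p = 1.23e-06). In these 3 genes kynurenine replicate 1 was the lowest of its group, yet above every DMSO library. ALPP, placental alkaline phosphatase, gave 25.9, 22.5 and 26.9 CPM with DMSO and 31.0, 36.2 and 35.8 CPM with kynurenine (0.45, adjusted p = 0.000153), and RARRES2, which codes for the chemoattractant chemerin, gave 18.2, 17.4 and 18.9 CPM against 26.0, 22.5 and 22.5 CPM (0.38, adjusted p = 0.000506). ALPP has near-identical relatives, so reads could be split among them by the counting. Few reads were assigned to 2 of these relatives. ALPPL2 had 4, 5 and 3 reads with DMSO and 1, 1 and 2 with kynurenine, where ALPP had 622 to 967. ALPI had 0 reads over the DMSO libraries and 1 over the kynurenine libraries. OSBP2, an oxysterol-binding protein, gave 29.2, 28.6 and 30.8 CPM against 35.6, 38.1 and 35.6 CPM (0.30, adjusted p = 0.00106). GDA, guanine deaminase, gave 139, 141 and 139 CPM against 170, 176 and 166 CPM (0.29, adjusted p = 3.53e-06). The DMSO values of GDA differed among themselves by far less than the step to kynurenine. MEGF6 gave 10.7, 10.1 and 10.8 CPM against 12.8, 14.3 and 13.9 CPM (0.38, adjusted p = 0.017), and its call ended when DMSO replicate 2, kynurenine replicate 2 or kynurenine replicate 3 was absent (adjusted p up to 0.14).

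The remaining rises, apart from the low-count gene STMND1, were of 1.25-fold or less. FGFBP1, which carries fibroblast growth factors, was higher by 0.28, the stress chaperone HSPA1B by 0.25, the ERK phosphatase DUSP5 by 0.25, SPATS2L by 0.22, the histone demethylase KDM7A by 0.22, the transcriptional inhibitor ID1 by 0.18 and the lectin LGALS3 by 0.18 on the log2 scale. Their adjusted p ran from 0.000316 for HSPA1B to 0.022 for KDM7A and LGALS3 (edgeR). FGFBP1, HSPA1B and SPATS2L stayed called when any 1 of the 12 libraries was left out. DUSP5 was lost without DMSO replicate 2 (adjusted p = 0.085), ID1 in the absence of DMSO replicate 1 or of kynurenine replicate 3 (up to 0.076), KDM7A in the absence of DMSO replicate 3, kynurenine replicate 2 or kynurenine replicate 3 (up to 0.22), and LGALS3 in that of DMSO replicate 2, DMSO replicate 3 or kynurenine replicate 1 (up to 0.23). KDM7A and LGALS3 were also lost in the 6-library fit (0.083 and 0.097). HSPA1B has a near-identical copy, HSPA1A, and their reads could not be told apart with certainty. HSPA1A was not called, with 67, 68 and 59 reads with DMSO and 69, 88 and 50 with kynurenine (0.12, adjusted p = 0.96, edgeR).

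**Figure D2:**
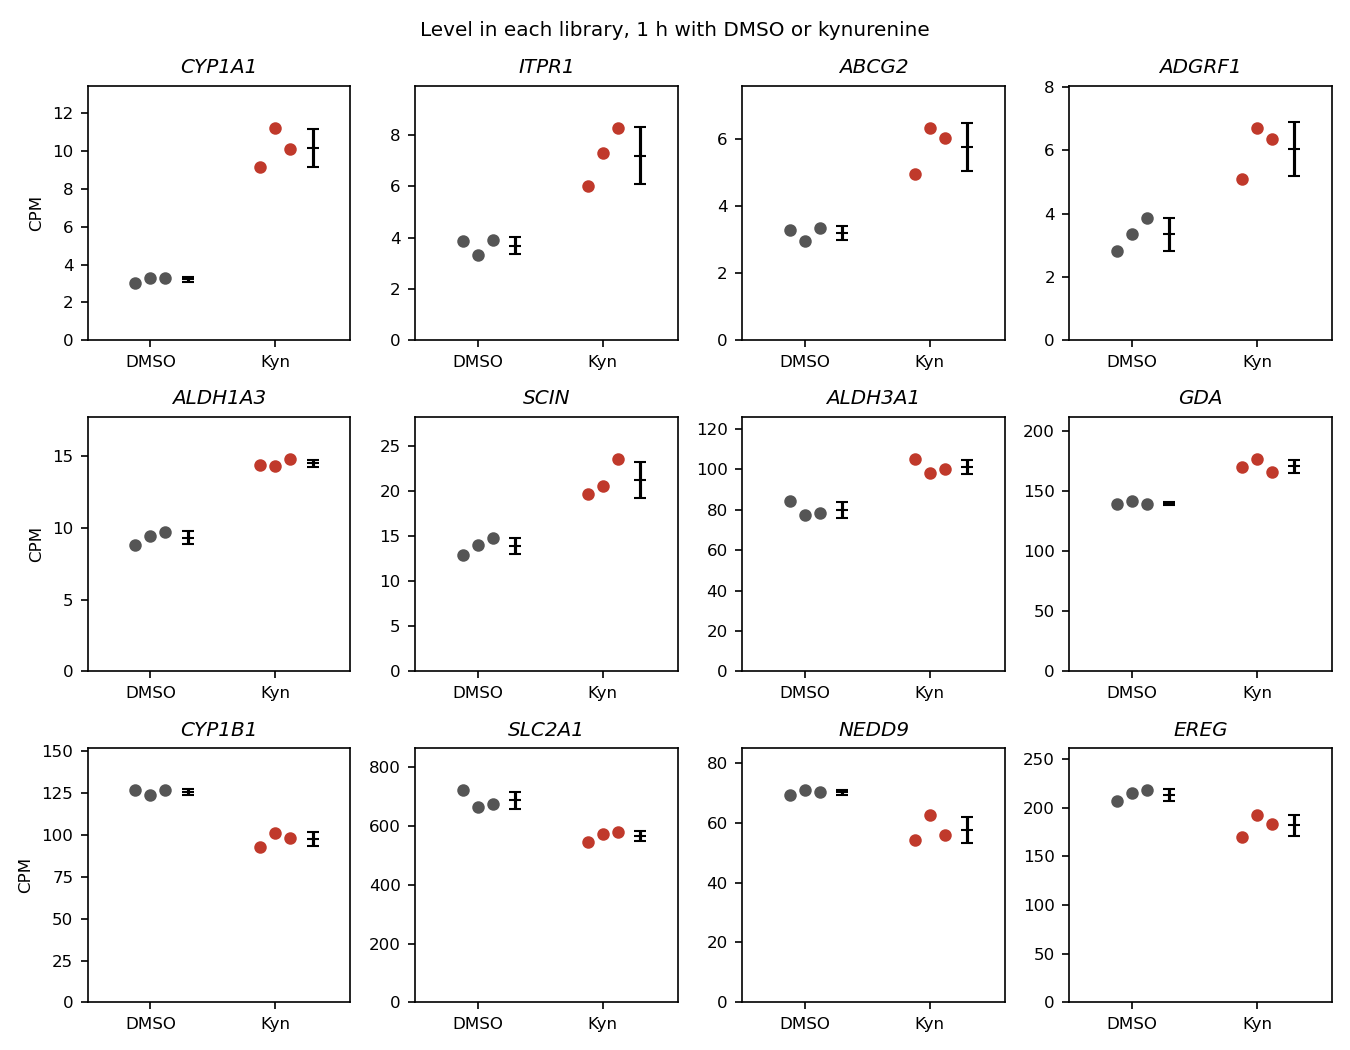
CPM in each library (points) for 8 genes that rose and 4 that fell, with DMSO libraries in grey, kynurenine libraries in red, and the mean ± SD of 3 libraries in black beside each group; every vertical axis starts at 0. The groups do not overlap in any panel; CYP1A1 moves from 3.05 to 3.30 CPM up to 9.16 to 11.2 CPM, and CYP1B1 from 124 to 127 CPM down to 92.9 to 101 CPM.

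Several targets of the receptor were lower with kynurenine. CYP1B1, a cytochrome P450 that oxidises oestrogens and aromatic hydrocarbons, gave 127, 124 and 127 CPM with DMSO and 92.9, 101 and 98.4 CPM with kynurenine (log2 fold change -0.37, SE 0.0388, adjusted p = 2.44e-07, edgeR). No kynurenine library reached the DMSO range, and the call held in every setting run, including without kynurenine replicate 1 (-0.33, adjusted p = 1.6e-07). CYP1B1 lies on the minus strand of chromosome 2 (hg38, 38066973 to 38109902). It overlaps CYP1B1-AS1 and RMDN2 on the other strand, whose reads cannot be told apart from it if the counting ignored strand. Those genes were at 0.13 and 0.15 (adjusted p = 0.99 and 0.89). TIPARP, an ADP-ribosyltransferase that AHR induces and that represses it, gave 43.3 to 44.6 CPM with DMSO and 36.5 to 39.7 CPM with kynurenine (-0.21, adjusted p = 0.027). That call was lost without any 1 of the DMSO libraries or without kynurenine replicate 1 or 2 (highest adjusted p 0.15) and in the 6-library fit (0.084). AHRR, the receptor's repressor, was at 6.25 ± 0.354 CPM with DMSO and 5.16 ± 0.632 CPM with kynurenine (SD, n = 3 each), a log2 fold change of -0.28 (95% interval -0.50 to -0.05, adjusted p = 0.55). NEDD9, a docking protein of cell adhesion, gave 69.3, 70.8 and 70.2 CPM with DMSO and 54.1, 62.6 and 56.0 CPM with kynurenine (-0.28, adjusted p = 0.000476). EREG, a ligand of the EGF receptor, gave 207, 215 and 218 CPM against 170, 192 and 183 CPM (-0.23, adjusted p = 0.0013). In both genes all kynurenine libraries lay below the DMSO range, with kynurenine replicate 1 lowest.

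Of the 25 genes listed as AHR targets, 20 were tested, 5 were called higher (CYP1A1, ABCG2, ALDH1A3, ALDH3A1 and NQO1) and 4 lower (CYP1B1, TIPARP, NEDD9 and EREG), beside 0.154% and 0.14% of all genes. The list was written with earlier results of these data known, so its share of called genes is not an independent measure. The median over the 20 was 0.04, beside -0.0030 over all genes. The untested 5 (UGT1A1, GSTA1, GSTA2, SERPINB2 and IL1B) had too few reads. The receptor and its partner did not pass the test, and their intervals were narrow. AHR was at 195 ± 7.38 CPM with DMSO and 193 ± 8.42 CPM with kynurenine (log2 fold change -0.01, 95% interval -0.09 to 0.07), and ARNT was at 33.1 ± 1.55 and 33.6 ± 1.25 CPM (0.02, -0.08 to 0.12), with adjusted p of 0.99 and 0.98 (SD, n = 3 each). The sign of both depended on which library was left out. Among 24 tested genes of the receptor complex, TIPARP was the 1 called, beside 0.294% of all genes, and the median was -0.0071. HSP90AA1, the inducible HSP90, was at 0.11 (adjusted p = 0.17). Among the enzymes that make or break down tryptophan and kynurenine, none of 14 tested was called by edgeR and 0 had an unadjusted p under 0.05, beside 0.294% and 6.7% of all genes. IDO1 had 1 read and IDO2 none in the 6 libraries, and TDO2, at 0.33 to 0.784 CPM, was at 0.54 with a 95% interval of -0.18 to 1.25. Among 18 tested amino acid carriers none was called by edgeR, beside 0.294% of all genes, and 2 had an unadjusted p under 0.05, beside 6.7%. SLC7A5, the carrier through which kynurenine enters cells, was at 1332 ± 42.4 CPM with DMSO and 1412 ± 29.2 CPM with kynurenine (0.08, adjusted p = 0.63), and SLC1A5, a glutamine carrier, was at -0.08 (adjusted p = 0.55). MYC was at 0.12 (165 ± 4.17 against 179 ± 5.62 CPM, adjusted p = 0.31).

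SLC2A1, the glucose carrier GLUT1, gave 720, 665 and 674 CPM with DMSO and 545, 571 and 580 CPM with kynurenine (-0.28, SE 0.0373, adjusted p = 1.43e-05). It was the 1 called gene among 37 tested for glycolysis and hypoxia, beside 0.294% of all genes, and the median of the 37 was -0.0087. ARHGEF3 gave 96.0, 96.2 and 92.7 CPM against 79.4, 76.1 and 76.9 CPM (-0.29, adjusted p = 9.75e-06). SEMA5A, a semaphorin of cell guidance, gave 68.9, 65.3 and 70.3 CPM against 50.9, 55.4 and 60.4 CPM (-0.30, adjusted p = 0.000506). PIM1, a serine/threonine kinase raised by cytokines, gave 30.8, 28.5 and 29.0 CPM against 24.1, 24.1 and 22.7 CPM (-0.32, adjusted p = 0.00106). These 4 falls were kept in every fit that left out a library. CEMIP, which takes part in hyaluronan breakdown, gave 336, 352 and 353 CPM against 275, 309 and 313 CPM (-0.22, adjusted p = 0.00294), and it too was kept in every such fit (highest adjusted p 0.040).

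MB21D2 gave 12.3, 12.6 and 12.1 CPM with DMSO and 9.55, 10.0 and 9.17 CPM with kynurenine (-0.36, adjusted p = 0.032), and ACSS1, a mitochondrial acetyl-CoA synthetase, gave 16.9, 16.4 and 17.2 CPM against 14.0, 13.1 and 13.4 CPM (-0.32, adjusted p = 0.022). DAB2, an endocytic adaptor, gave 38.8, 40 and 39.4 CPM against 32.3, 35.1 and 31.6 CPM (-0.26, adjusted p = 0.0093). FAM189A1 gave 36.0, 34.3 and 35 CPM against 28.5, 30.4 and 30.5 CPM (-0.24, adjusted p = 0.021). Groups did not overlap, yet each of these 4 calls depended on single libraries. MB21D2 was lost without any 1 of the 6 libraries compared or TCDD replicate 1 (highest adjusted p 0.17). For ACSS1 the call ended when DMSO replicate 1, DMSO replicate 3, kynurenine replicate 2 or kynurenine replicate 3 was absent (up to 0.14). For DAB2 it ended in the absence of DMSO replicate 2 or of kynurenine replicate 3 (up to 0.096), and for FAM189A1 in that of DMSO replicate 1, DMSO replicate 3 or kynurenine replicate 1 (up to 0.14). The fit of the 6 compared libraries alone also lost MB21D2, ACSS1 and FAM189A1 (adjusted p = 0.077, 0.091 and 0.055), and DESeq2 lost MB21D2 and ACSS1 (0.071 and 0.063). The smaller falls were PPFIBP2, a liprin (-0.20), LGR5, a marker of intestinal stem cells (-0.18), THBS1, a matrix glycoprotein (-0.18), CYR61, a matrix protein and YAP target (-0.17), CLDND1 (-0.16) and the nucleoside carrier SLC29A1 (-0.16), with adjusted p of 0.022 to 0.038 (edgeR). None of these 6 kept its call in every fit that left out a library, and their highest adjusted p ran from 0.16 to 0.41. The 6-library fit lost all 6 (0.083 to 0.18), and DESeq2 lost PPFIBP2 (0.051).

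**Figure D3:**
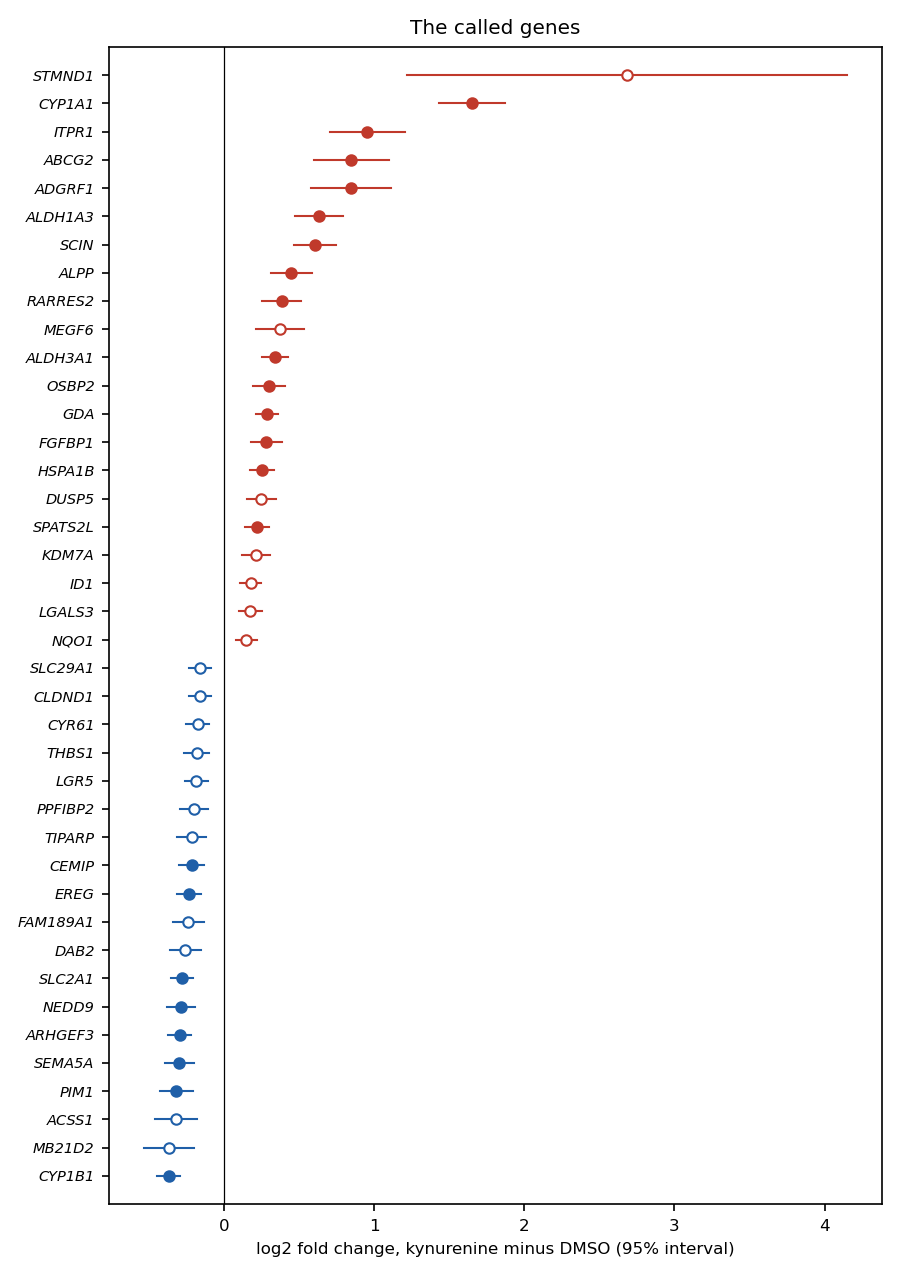
Log2 fold change of kynurenine against DMSO for the 40 called genes, with 95% intervals as lines, rises in red and falls in blue. Filled points mark the 22 genes called in all 12 fits that left out 1 library, and open points the other 18; most open points lie near 0, while STMND1, the farthest from it, is open and has the widest interval.

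In all, 22 of the 40 genes were called in every fit that left out 1 library and in every other setting run, and 18 were lost in at least 1. Without kynurenine replicate 1, 29 of the 40 were kept, and 42 genes were called, 30 higher and 12 lower. The 13 genes called there and not with all libraries included MYOF, HSD17B7, CDH17 and INSIG1, all higher, and the phagocyte oxidase gene CYBB, lower. A fit of the 6 compared libraries alone, in which the other treatments no longer informed the spread, called 26, all of them among the 40.

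At low counts the precision fell off. The median SE of the log2 fold change was 0.437 for 777 genes at or under 0.5 CPM, 0.312 for 777 genes from 0.5 to 1 CPM, 0.170 for 1871 genes from 1 to 5 CPM and 0.0360 for 2438 genes above 100 CPM. The 95% interval lay wholly within 1.5-fold in either direction for 11548 genes (84.8%). In the lowest range that held for 0%, and from 1 to 5 CPM for 71.4%, so for most genes under 1 CPM a change of that size was not detectable at this depth. STMND1, a stathmin-domain gene, was the 1 gene called of 1554 tested under 1 CPM. It had 1, 2 and 3 reads in the DMSO libraries and 21, 9 and 10 in the kynurenine libraries, beside 11, 22 and 19 with TCDD and 3, 5 and 1 with CH223191. Every kynurenine library exceeded every DMSO library, but kynurenine replicate 1 held more than the other kynurenine libraries together. Its log2 fold change was 2.69 (95% interval 1.22 to 4.15, adjusted p = 0.022), and the call was lost without any 1 of the DMSO libraries or without kynurenine replicate 1 (2.25, adjusted p = 0.22). STMND1 did not pass the filter in the fit of the 6 compared libraries alone, so its place in the main test rested on the TCDD libraries. DESeq2 gave it no adjusted p. CYP1A2, the neighbour and relative of CYP1A1, had 6, 15 and 11 reads with DMSO and 26, 28 and 26 with kynurenine, beside 50, 56 and 69 with TCDD and 12, 15 and 1 with CH223191. The kynurenine libraries were alike and all above the DMSO libraries. Its log2 fold change was 1.34 (95% interval 0.59 to 2.09, adjusted p = 0.11), and it was called when no filter on low counts was used (adjusted p = 0.0069). The fit without a filter also called genes whose groups overlapped, such as RN7SL2.

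Without that filter 20170 genes were tested and 65 (0.322%) were called, among them all 40. The filter had left out 6551 genes with at least 1 read. Of these, 109 had an unadjusted p under 0.05, beside 1113 of the 20170, and edgeR called 0 of the 6551. The 25 added genes therefore all came from genes already tested. They included RNA18S5, a ribosomal RNA at 98.9 CPM in DMSO replicate 1 and 0.615 and 0.514 CPM in the other DMSO libraries, so that its log2 fold change of -3.69 rests on a single library. By edgeR its adjusted p was 1.8e-309 without the filter and 0.085 with it. A call in the fit without the filter thus did not require the libraries of a group to be alike. In the 6 libraries 7395 of 26485 gene symbols had no read and 3523 had 1 to 9 reads in all. All-or-none patterns were few and thin. Reads were present in all 3 kynurenine libraries and in no DMSO library for 19 genes, and the reverse held for 33. None of them passed the filter, and the most reads any had was 12. LOC400997 had 6, 4 and 2 reads with DMSO and 0 in each kynurenine library, and VIPR2, a receptor for vasoactive intestinal peptide, had 5, 2 and 1 against 0. ANKRD20A9P had 0 reads in each DMSO library and 3, 2 and 4 with kynurenine, LOC101927018 had 1, 4 and 4, MIR4519 had 2, 2 and 4, and the metalloprotease gene ADAMTS9 had 2, 1 and 4. None was called without the filter either (adjusted p from 0.20 to 0.58, edgeR), and counts this low allow no statement on direction.

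Stress and growth programmes moved little. Among 27 tested heat shock and chaperone genes, HSPA1B was called higher, beside 0.154% of all genes, and 26 lay above 0, beside 6557 of all 13619. In the rising direction 9 had an unadjusted p under 0.05, beside 3.02% of all genes, and the median was 0.07, beside -0.0030. HSP90AA1 gave 4931, 5064 and 5327 CPM with DMSO and 5497, 5610.2 and 5423 CPM with kynurenine, and HSPH1 and DNAJA1, a pair of co-chaperones, were each at 0.10 (adjusted p = 0.31 and 0.33). Among 23 NRF2 targets NQO1 was called higher, beside 0.154% of all genes, 5 were higher at an unadjusted p under 0.05, beside 3.02%, and the ferritin gene FTH1 was at 0.11 (adjusted p = 0.21). Of 27 cholesterol synthesis genes 0 were called by edgeR, 8 were higher (beside 3.02% of all genes) and 1 lower (beside 3.69%) at an unadjusted p under 0.05, and the median was 0.05. INSIG1, which holds back sterol production, gave 81.0, 79.6 and 88.2 CPM against 89.2, 91.2 and 102 CPM (0.18, adjusted p = 0.098). In the fit without kynurenine replicate 1, INSIG1, HSD17B7 and MSMO1 were called (adjusted p = 0.0091, 0.0019 and 0.044). Among 33 adhesion and cytoskeleton genes, SCIN was called higher (beside 0.154% of all genes) and NEDD9, SEMA5A, CEMIP and DAB2 lower (beside 0.14%). Of the 33, 8 were lower at an unadjusted p under 0.05, beside 3.69% of all genes. CYR61 was the called gene of 21 YAP targets, PIM1 of 21 cytokine feedback genes, LGR5 of 18 Wnt targets and stem cell genes, and ID1 of 17 ID and TGF-beta feedback genes. DUSP5, higher, and EREG, lower, were called among 27 genes of EGF receptor signalling. Over all genes 0.154% were called higher and 0.14% lower. At an unadjusted p under 0.05 these 5 lists held, in the same order, 0, 1, 4, 3 and 4 higher genes, beside 3.02% of all genes. The lower ones were 4, 2, 2, 0 and 2, beside 3.69%. Nothing was called by edgeR among 32 immediate-early genes (6 at an unadjusted p under 0.05), 26 genes of the integrated stress response (3), 29 NF-kB and inflammatory genes (4), 25 G1/S genes (3), 25 G2/M genes (3), 29 ribosome biogenesis genes (4) or 79 ribosomal protein genes (8), beside 6.7% of all genes at that unadjusted p. The 3 G1/S and 4 ribosome biogenesis genes at that p were all lower, beside 3.69% of all genes. The 3 G2/M and 8 ribosomal protein genes were all higher, beside 3.02%. Of the 79 ribosomal protein genes 59 lay above 0, beside 6557 of all 13619. RNAs without a poly(A) tail, a sign of how the RNA was selected, were at a median of 0.20 over 8 tested with 0 called by edgeR and 1 at an unadjusted p under 0.05, RMRP, at 0.63 (adjusted p = 0.24). RMRP was called without kynurenine replicate 1 (0.85, adjusted p = 0.0037) and without the low-count filter (0.64, adjusted p = 0.00060). Its groups overlapped, with DMSO at 2.71 to 4.26 CPM and kynurenine at 3.56 to 6.91 CPM. The part of these RNAs in the results was not tested. Of the 40 called genes, 22 were in 1 or more of the 32 lists and 18 in none.

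**Figure D4:**
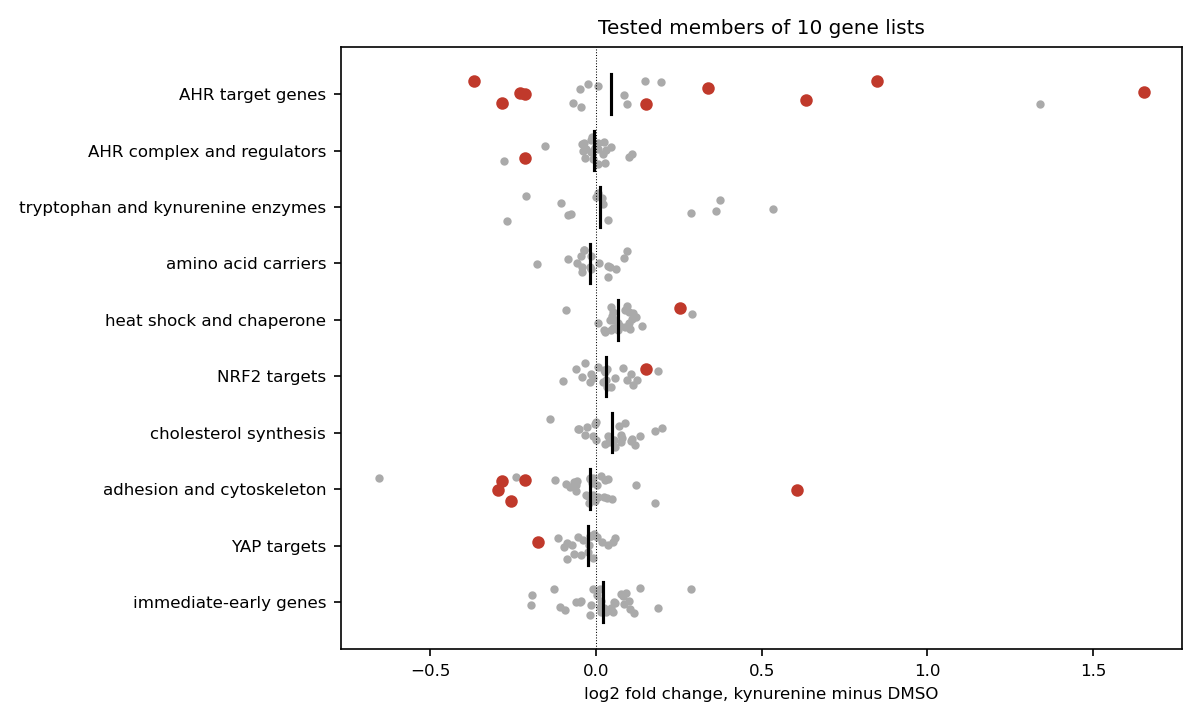
Log2 fold change of kynurenine against DMSO for each tested member of 10 gene lists (points), with called genes in red, other genes in grey and the list's median as a black bar; vertical position within a list is random scatter. The AHR target list spreads to both sides of 0 with 9 red points, the heat shock list lies to the right of 0 except for 1 gene, and the lists of kynurenine enzymes and carriers hold no red point.

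The same libraries were set against the other compounds at the same dose and time, tests that share the kynurenine libraries which chose the genes. Against TCDD 1252 genes (9.19%) were called by edgeR, 557 higher (4.09%) and 695 lower (5.1%) with kynurenine, but 576 without TCDD replicate 3 and 658 without kynurenine replicate 1. Against CH223191, 4495 genes (33%) were called, 2267 higher (16.6%) and 2228 lower (16.4%). Scaling by library totals turned that split to 1765 higher and 2748 lower. Of the 21 genes that rose over DMSO, 12 were lower with kynurenine than with TCDD, 1 was higher (DUSP5, 59.0 ± 2.90 against 44 ± 0.723 CPM) and 8 were not called. CYP1A1 differed most, at 10.1 ± 1.01 CPM with kynurenine and 428 ± 15.9 CPM with TCDD (log2 difference -5.40, adjusted p = 1.55e-40), followed by ADGRF1, at 6.04 ± 0.840 and 18.3 ± 0.699 CPM (-1.60, adjusted p = 1.96e-14), and ALDH1A3, at 14.5 ± 0.246 and 30.8 ± 1.09 CPM (-1.09, adjusted p = 1.06e-14; SD, n = 3 each). RARRES2, HSPA1B, KDM7A, ID1, LGALS3, SPATS2L, NQO1 and STMND1 were not called between the ligands, the 95% interval for RARRES2 running from -0.07 to 0.18. Of the same 21, 18 were higher with kynurenine than with CH223191, ID1 and NQO1 were lower, and KDM7A was not called. CYP1A1 was at 0.520 ± 0.188 CPM with CH223191 (log2 difference 4.32, adjusted p = 2.61e-22).

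Of the 19 genes that fell against DMSO, 13 were lower with kynurenine than with TCDD, 0 were higher and 6 were not called (edgeR). CYP1B1 was at 126 ± 1.56 CPM with DMSO, 97.5 ± 4.26 with kynurenine, 646 ± 5.84 with TCDD and 49.9 ± 3.0 with CH223191, and TIPARP was at 44 ± 0.657, 38.0 ± 1.59, 145 ± 5.69 and 33.4 ± 1.15 CPM in the same order (SD, n = 3 each). AHRR, not called against DMSO, was at 23.4 ± 1.49 CPM with TCDD and 2.44 ± 0.388 CPM with CH223191. For these 3 genes kynurenine thus lay between DMSO and CH223191, with TCDD above DMSO. The kynurenine levels of CYP1B1 and TIPARP were below TCDD by 2.73 and 1.93 and above CH223191 by 0.97 and 0.18 on the log2 scale (adjusted p of 0.0038 or less). EREG was at 213 ± 5.80 CPM with DMSO, 182 ± 11.1 with kynurenine, 291 ± 12 with TCDD and 131 ± 5.93 with CH223191. SLC2A1 was at 566 ± 18.0 CPM with kynurenine and 575 ± 31.2 with CH223191, a log2 difference of -0.03 that was not called (adjusted p = 0.64). Against CH223191, 10 of the 19 were higher with kynurenine, SEMA5A and ACSS1 were lower, and 7 were not called.

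**Figure D5:**
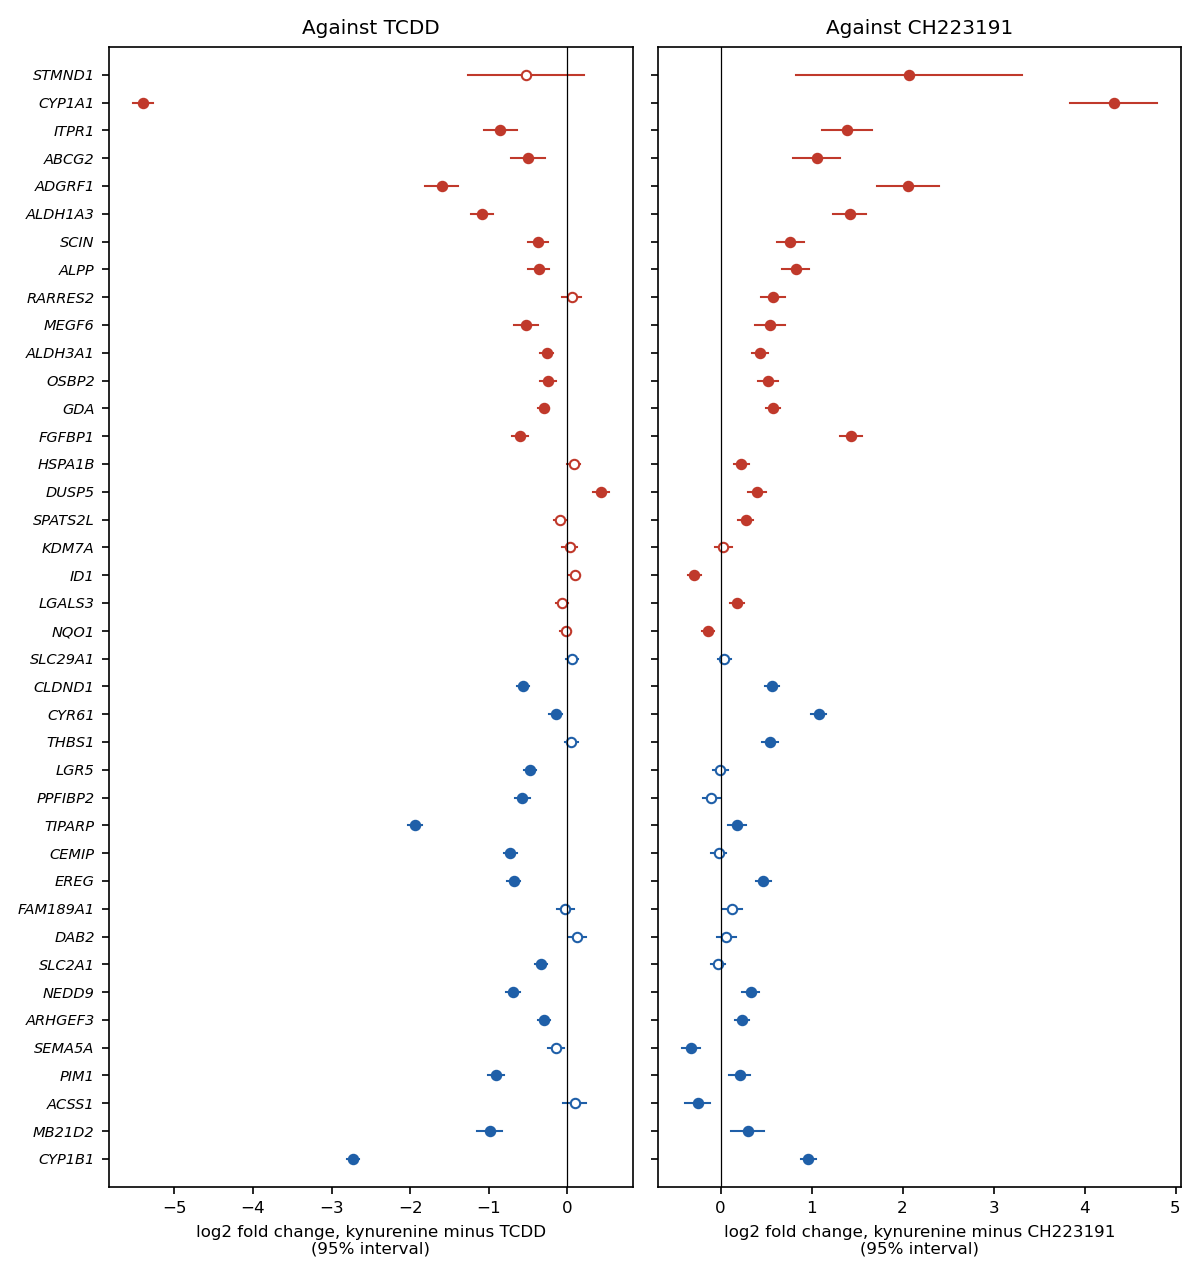
Log2 fold change of kynurenine against TCDD (left) and against CH223191 (right) for the 40 genes called against DMSO, in the order of their change against DMSO, with 95% intervals. Red genes rose and blue genes fell against DMSO, and filled points differ at an adjusted p under 0.05; on the left most filled points lie below 0, with CYP1A1 at -5.40, and on the right most lie above 0.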

How the data were processed

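Transcripts were measured by RNA sequencing in 12 libraries of DLD1 cells, 3 in each of 4 groups. The deposited values are raw gene counts made with HTSeq, per the submitters' processing notes, which also name Trim Galore, STAR 2.7.2b, SAMtools 1.9 and hg38. The labels' protocols instead name NGS QC Toolkit 2.3.3, Bowtie 2.3.2, STAR 2.5.2b and Ensembl 89. The strand setting is not given in the sources used here. HTSeq's lines for unassigned reads (no feature 6.79% to 8.48% of reads) were left out. Counts were fitted with edgeR 4.0.16 (R 4.3.3), TMM scaling, filterByExpr with a minimum count of 10 and the quasi-likelihood test over all 4 groups, with Benjamini-Hochberg adjustment over 13619 genes and a threshold of 0.05. CPM values use the TMM-scaled library sizes, except those of the colon, fibroblast, immune and endothelial markers, which use the library totals. DESeq2 1.42.0 and other settings were alternatives. The scripts were tested on simulated data. Gene positions are from GENCODE 44, promoters from RefSeq. The genes described, the lists and the naming rule were chosen with earlier results of these data known. Every called gene is named, and the 12 largest rises and falls at 1 CPM or more are given per library. List members that were not called are named only in part, mostly by their log2 fold change.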

Additional observations from a re-analysis of the deposited data

How the results depend on the processing

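In kynurenine against DMSO, 40 genes were called. RLE factors gave 41 calls, library totals 40, a 5 CPM minimum in 3 libraries 41 and DESeq2 41, of which 36 were among the 40. The count moved further with the filter and the samples, to 65 without a low-count filter and 26 from the 6 libraries alone. Leaving out 1 library gave 30 to 44 calls against DMSO, 576 (without TCDD replicate 3) to 1323 against TCDD, with 658 without kynurenine replicate 1, and 3577 to 4559 against CH223191. With the replicate number as a block, 38 genes were called against DMSO, 37 of them among the 40. CLDND1, PPFIBP2 and SLC29A1 lost their calls under the block (adjusted p = 0.058, 0.053 and 0.058). Same-numbered libraries correlated at 0.064 to 0.152, and others at -0.242 to 0.166, and 2 of 3 kynurenine libraries correlated best with their own number. With 3 libraries in a group, these values cannot settle whether the numbers mark pairs. Removing GC content and gene length trends, an alternative chosen after seeing the data, gave 45, 881 and 4808 calls against DMSO, TCDD and CH223191, 39 of the 45 among the 40. Of 128 genes followed against DMSO, 126 kept their sign in all settings. Leaving out 1 library, AHR ran from -0.049 to 0.015 (positive without DMSO replicate 2 or kynurenine replicate 1, 0.013) and ARNT from -0.015 to 0.045 (negative without DMSO replicate 1 or kynurenine replicate 1, -0.0063). The cause of these shifts was not tested. No scaling moved the median of all genes by more than 0.0045 from 0. Depth limits the comparison below 1 CPM, where few intervals lie within 1.5-fold.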

Other observations

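Among the 25 genes that were called without a filter on low counts and not with it, some are structural, metabolic or non-coding. PLEC, a linker of intermediate filaments, was at -0.18 (adjusted p = 0.00010 without the filter and 0.077 with it, edgeR), the fatty acid synthase FASN at -0.16 (0.00087 and 0.10), the matrix proteoglycan genes AGRN at -0.16 (0.0024 and 0.11) and HSPG2 at -0.26 (0.0047 and 0.093), and the chloride channel CFTR at -0.16 (0.0084 and 0.10). The mitochondrial ribosomal gene MRPS6 was at 0.18 (0.017 and 0.15), and RN7SL2, the RNA of the signal recognition particle, was at 0.21 (0.0057 and 0.90). The groups of RN7SL2 overlapped, at 39.1 to 65.2 CPM with DMSO and 51.8 to 72.1 CPM with kynurenine. The trend of the log2 fold change with GC content and length ran from -0.096 to 0.023 over 12435 genes, and its part in these values was not tested.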
